A study of Mus musculus with 28 samples.

Results

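The regions described here carried peaks of H3K4me3 and of H3K9me3 at the same place in mouse lung tumours. They were chosen by the peaks themselves, on chromosomes 1 to 19. Bases covered in at least 3 of the 4 H3K4me3 peak lists were joined across gaps of up to 1 kb, and stretches of 200 bp or more were kept, which gave 12159 H3K4me3 regions. A region was selected when it shared at least 1 bp with bases covered in at least 2 of the 4 H3K9me3 lists and none with bases covered in at least 2 of the 4 H3K27me3 lists. This left 173 regions, 1.42% of all H3K4me3 regions, called dual-mark regions below. H3K9me3 met its criterion at 1.57% of all H3K4me3 regions, and 18 of those were left out because they also held H3K27me3. The regions set beside them are the 10822 plain H3K4me3 regions, which met neither criterion, and the 1146 regions with H3K4me3 and H3K27me3 but not H3K9me3. Levels of H3K4me3, H3K9me3 and H3K27me3 at these regions follow from the selection and are given as description, with no test. H3K79me2, H3K27ac and H3K4me1 played no part in it.

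H3K4me3 is placed by the SET1 and MLL family of methyltransferases and marks the start sites of active or poised genes. H3K9me3, placed by enzymes such as SETDB1 and SUV39H1 and bound by HP1 proteins, marks heterochromatin, silenced repeats and, in mammals, the gene bodies of many zinc-finger gene clusters. H3K79me2 is placed by DOT1L over the early part of transcribed genes, H3K27ac marks active promoters and enhancers, and H3K4me1, the product of enzymes such as MLL3 and MLL4, marks enhancers and the flanks of promoters. The overlap of H3K4me3 and H3K9me3 is known from imprinted control regions, where the alleles differ, and from some promoters.

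The study mapped chromatin by ChIP-seq, in which an antibody against a modified histone pulls down the DNA bound to it, in lung tumours of 2 types. Both types arose in mice carrying K-RasLSL-G12D, a mutant K-Ras allele silent until Cre removes a stop cassette, and were started by Ad-CMV-Cre, an adenovirus that expresses Cre from the CMV promoter, which is not limited to 1 cell type. In the second type the mice also carried Mll4fl/fl, floxed alleles of the H3K4 methyltransferase gene Mll4, which Cre can inactivate. Of the 28 samples, 24 were antibody libraries (6 marks with 4 replicates each) with a peak list, and 4 were inputs, not analysed here. No label ties a library to a tumour type, so the types were not compared and the spread between replicates can hold a difference between them. The labels name no separate animals, so the spread between the 4 libraries of a mark, and every p-value below, may be technical. No age or strain of the mice was given in the sources used here. Tumour tissue is a mixture of cells, and 2 peaks at the same place cannot be told apart from 2 peaks on different cells or on different alleles.

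Some lists stood apart from others of their mark. The H3K4me3 list of replicate 1 covered 3.12 Mb and touched 40.3% of the H3K4me3 regions, against 26.4 to 32.3 Mb and at least 99.6% in the other 3, so the criterion of 3 lists was met mostly by replicates 2, 3 and 4. The H3K4me3 list of replicate 4 had 7.39% of its peaks in H3K9me3 bases, against 2.93 to 3.16% in the others. Of the H3K9me3 lists, replicate 4 was the longest (11244 peaks) and the one that shared least, with 33.7% of its peaks on bases covered in at least 2 H3K9me3 lists against 62.1 to 70.8%. Of the H3K27ac peaks of replicate 2, 34.3% touched bases found in at least 2 other H3K27ac lists, against 45.9 to 82.8% for the other 3, and 0.777% lay in H3K9me3 bases, against 0.025 to 0.187%. Counts and differences that turn on this library are given with and without it. Sequencing depth is unknown for all libraries.

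The dual-mark regions had a median length of 1329 bp (quartiles 638 and 2126, range 215 to 9070 bp). The median was 1795 bp for plain H3K4me3 regions and 1410.5 bp for H3K4me3 regions with H3K27me3. Peaks of the 4 H3K4me3 libraries touched 60.1, 97.1, 90.8 and 100% of the dual-mark regions in replicates 1 to 4, and covered 23.9, 96.3, 64.5 and 98.7% of their bases. At plain regions the H3K4me3 peaks covered 8.06, 99.8, 97.1 and 99.6% of bases. The dual-mark regions were thus less completely filled in replicate 3 and more so in replicate 1. Ranked by the authors' score within each list, the strongest H3K4me3 peak at a dual-mark region stood at a median percentile of 51.2, 32.5, 50.9 and 52.6, and that at a plain region at 59.2, 61.0, 80.8 and 64.2. The H3K4me3 peaks of dual-mark regions thus ranked in the middle of their lists or below, and under those of plain regions in all 4.

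The H3K9me3 peaks stood at the top of their lists by the same measure. The highest H3K9me3 peak at a dual-mark region stood at a median percentile of 99.0, 98.9, 98.1 and 98.4 in replicates 1 to 4. Peaks of the 4 H3K9me3 libraries covered 92.4, 90.3, 84.6 and 92.3% of the bases of the dual-mark regions. In 159 regions some base carried H3K9me3 in all 4 lists, in 8 the highest number was 3 and in 6 it was 2. Just outside the criterion, 282 plain regions had H3K9me3, in no more than 1 list at any base, and replicate 4 touched 274 of them. A further 16 plain regions had H3K9me3 in at least 2 lists within 1 kb, but not inside. Just inside it, 3 dual-mark regions shared less than 200 bp with H3K9me3 and 4 had H3K27me3 in 1 list.

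Within the region, H3K9me3 usually ran across the whole of H3K4me3. In 134 of the 173 regions (77.5%) every base had H3K9me3 in at least 2 lists, the same mark and number of lists that chose the regions. In 14 regions it covered at least 90% but not all bases, in 15 at least 50% and below 90%, and in 10 less than 50%. The H3K9me3 block, its bases in at least 2 lists with gaps of up to 1 kb closed, passed both edges of the H3K4me3 region in 152 cases, 1 edge in 18, and lay inside the region in 3. The share of wholly covered regions moved with the libraries and the number of lists required. Without replicate 1 of every mark, with 2 of the 3 remaining lists required, 317 regions qualified and 32.8% were wholly covered. Without replicate 3 the values were 307 regions and 50.2%. With all libraries and H3K4me3 in at least 2 lists they were 347 regions and 51.0%. Leaving out a replicate thus changed both choices at once, and their parts were not tested.

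**Figure D1:**
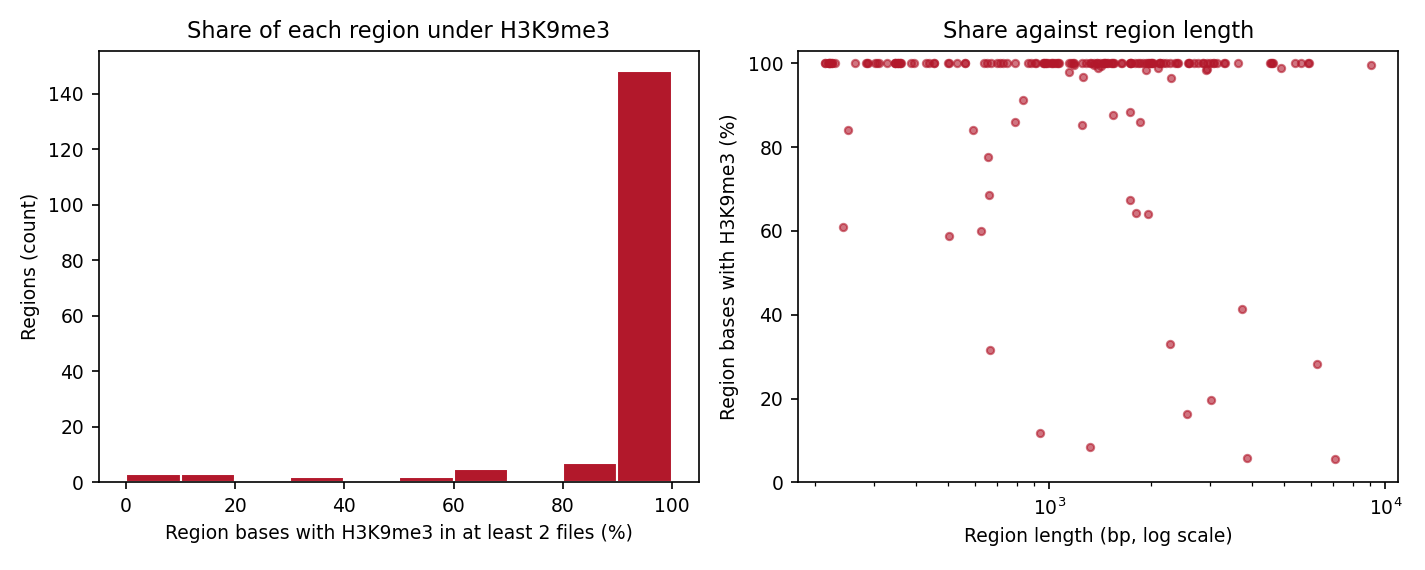
H3K9me3 over the 173 dual-mark regions. Left, the number of regions by the share of their bases with H3K9me3 in at least 2 of 4 lists (in %, bins of 10). Right, the same share (in %) against region length in bp on a log scale, 1 point per region. Wholly covered regions (134) are found over most of the range of lengths, and 10 regions lie below 50%.

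The block was longer than the H3K4me3 region by a wide margin. Counted once for each dual-mark region, the blocks around them had a median length of 6384 bp. The H3K4me3 region made up a median of 24.2% of the length. The block reached a median of 1188 bp beyond the nearer edge of the region and 3101 bp beyond the farther edge, and the centres of region and block lay a median of 770 bp apart. The distance between centres was a median of 28.6% of the way from the middle of the block to its edge. Around the centres of the dual-mark regions, H3K9me3 peaks covered 82.3 ± 4.61% of bases within 1 kb, 36.5 ± 9.10% at 2 to 5 kb, 16.8 ± 6.62% at 5 to 10 kb and 7.54 ± 3.43% at 10 to 20 kb (mean ± SD, n = 4 libraries). The fall of H3K4me3 with distance differed between libraries. Its peaks covered 11.3, 83.2, 45.7 and 88.8% of bases within 1 kb in replicates 1 to 4, and 1.52, 17.7, 8.06 and 36.0% at 2 to 5 kb. At 10 to 20 kb the 4 values were 0.553, 8.28, 5.59 and 12.2%. Replicate 4 was the highest in each of these zones. At plain regions the H3K4me3 values at 2 to 5 kb were 0.321, 3.52, 2.79 and 4.48%, lower than at dual-mark regions in each of the 4 libraries.

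**Figure D2:**
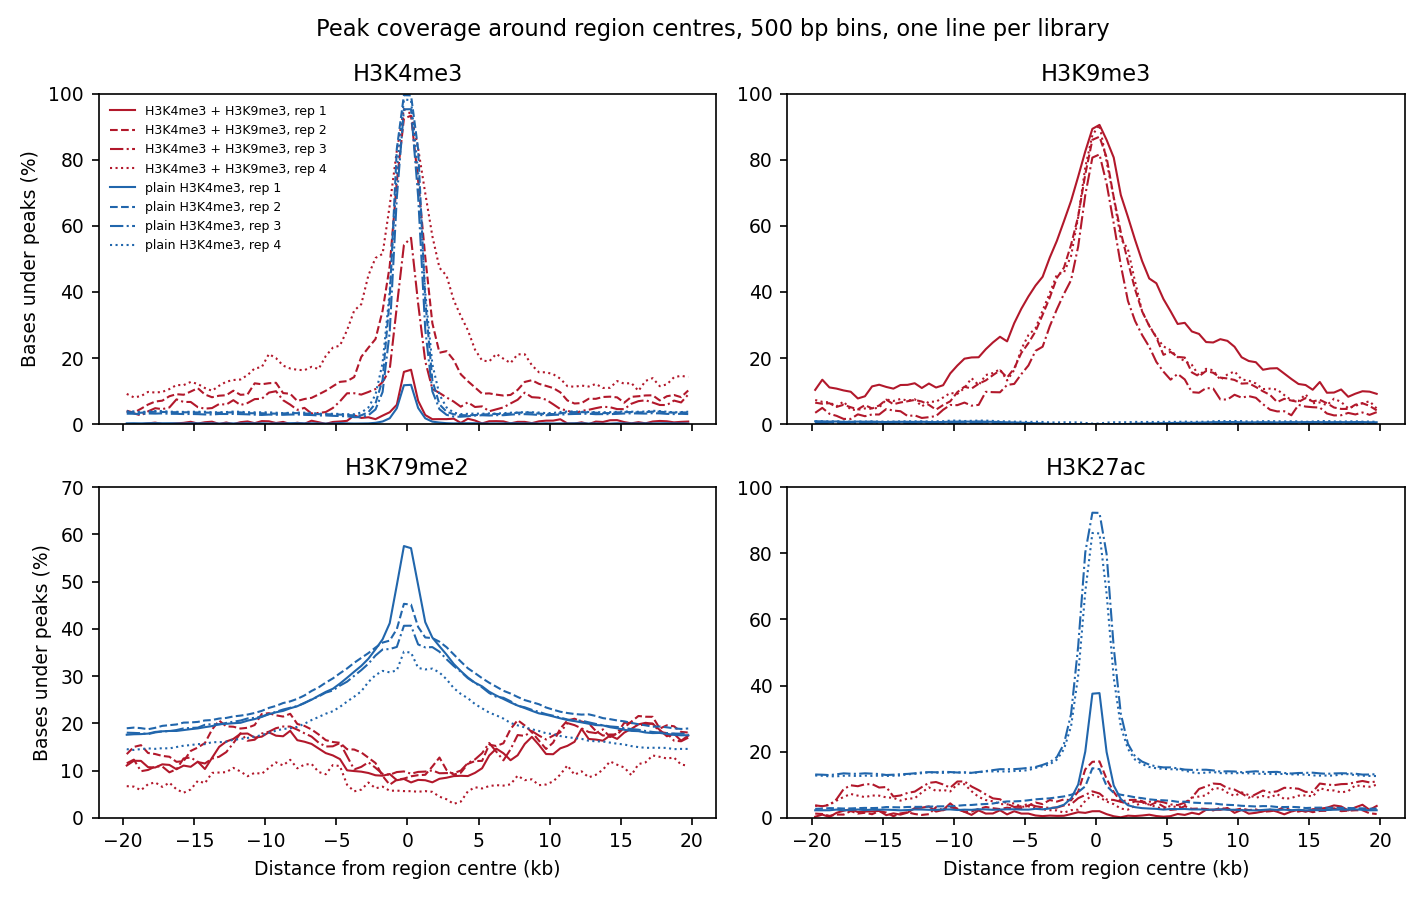
Share of bases under peaks (in %) against distance from the centre of the region (in kb, 500 bp bins) for H3K4me3, H3K9me3, H3K79me2 and H3K27ac, with 1 line per library, dual-mark regions in red and plain H3K4me3 regions in blue. At dual-mark regions H3K9me3 covers 82.3% of bases within 1 kb (mean of 4 libraries) and falls to 7.54% at 10 to 20 kb, while H3K79me2 is lowest at the centre (7.94%) and higher at 5 to 10 kb (14.7%), where plain regions have 23.7%. The vertical axis of the H3K79me2 panel ends at 70%.

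The regions longest in both marks were long stretches in which H3K4me3 and H3K9me3 peaks coincided for several kb. The longest dual-mark region, chr7:13427319-13436388 (mm9, 9070 bp), had H3K9me3 over 9070, 9020, 8978 and 8975 bp and H3K4me3 over 785, 9070, 6830 and 9070 bp in replicates 1 to 4. Of its bases, 6829 carried H3K4me3 in at least 3 lists and H3K9me3 in all 4, the highest number of any dual-mark region outside chromosome 18. Inside it H3K79me2 had 0, 1516, 0 and 0 bp, and in the 10 kb before it (at lower coordinates) 5347, 6106, 5685 and 2944 bp. In the 10 kb after it H3K79me2 had no base in any library. H3K79me2 thus lay on 1 side, and was absent from the region in 3 of 4 libraries.

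The next 7 by shared bases were 4531 to 5929 bp long, and H3K9me3 covered 98.9 to 100% of each. At chr8:111470652-111475206 (4555 bp) all 4 H3K9me3 lists covered all 4555 bp, and H3K79me2 had no base inside or within 10 kb in any library. At chr9:22081686-22087313 (5628 bp) H3K79me2 was likewise at 0 inside and in both flanks. The other 5 had H3K79me2 within 10 kb in all 4 libraries. At chr7:24887489-24892882 (5394 bp) it covered 4793, 4781, 3743 and 1482 bp of the lower flank and at most 42 bp of the upper one. At chr10:81521390-81526294 (4905 bp) it covered 8437, 8783, 5900 and 7029 bp of the lower flank and none of the region or the upper flank. At chr11:50713376-50719242 (5867 bp) it lay on the other side, with 1135, 2250, 1750 and 703 bp in the upper flank. At chr8:71749482-71755410 (5929 bp) it covered 7998, 9674, 9117 and 8003 bp of the lower flank and ran into the region for 844, 1003, 606 and 0 bp. At chr7:13075048-13079578 (4531 bp) the lower flank had 1415, 1213, 1293 and 274 bp. In all 8 regions H3K4me1 had no base, and H3K27ac had bases in replicate 2 but in no other library (134 to 4751 bp).

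Regions that H3K9me3 covered only in part looked different. The next longest dual-mark regions had H3K9me3 inside them rather than across. At chr3:96360323-96367380 (7058 bp), H3K9me3 was found at 857, 0, 0 and 397 bp, so that only 397 bp (5.62%) met the criterion, while H3K79me2 covered 6312, 6310, 4208 and 4629 bp and H3K27ac 4347, 3819, 7058 and 7058 bp. At chr15:72635325-72641589 (6265 bp), H3K9me3 covered 1759, 1346, 498 and 4303 bp, H3K79me2 4515, 4272, 4194 and 4074 bp, H3K27ac 250, 623, 2139 and 3968 bp, and H3K4me1 676, 1681, 1385 and 3198 bp. Both thus carried H3K79me2 and H3K27ac in all 4 libraries beside a patch of H3K9me3. The smallest overlaps were 111 bp at chr1:55419959-55420894 and 113 bp at chr8:128193291-128194613. The first held no H3K79me2, H3K27ac or H3K4me1 in any library, and the second held H3K27ac in 3 libraries (323, 1323 and 1260 bp in replicates 1, 3 and 4), H3K4me1 in 2 (269 and 254 bp in replicates 1 and 2) and no H3K79me2.

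H3K79me2 was rare inside the dual-mark regions. Its peaks touched 9.83, 11.6, 12.1 and 6.94% of them in replicates 1 to 4, against 66.2, 62.0, 61.4 and 56.9% of plain H3K4me3 regions. The groups did not overlap, and the lowest plain value lay far above the highest dual-mark value. The difference within a library was -51.5 ± 3.26 percentage points (mean ± SD, n = 4), and all 4 libraries went the same way. The exact two-sided sign-flip p was 0.125, the smallest that 4 libraries can give, and 0.208 after Benjamini-Hochberg adjustment over 5 tests, so it could not pass 0.05. In at least 2 of the 4 lists, H3K79me2 was found at 17 dual-mark regions (9.83%), against 59.7% of all H3K4me3 regions. The difference also moved with the criterion on H3K9me3. When 1 list was enough, which adds the 282 regions just outside, it was -3.20 percentage points (exact sign-flip p = 0.375). The 4 libraries then no longer all had the same sign.

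H3K79me2 was at a base in all 4 lists in 11 dual-mark regions (6.36%), against 42.5% of all H3K4me3 regions. Of these 11, 5 had H3K9me3 over less than 50% of their bases and 3 were wholly covered. All 11 had H3K27ac in at least 1 list. In 7 of them it was in replicate 1, 3 or 4, and in the other 4 only in replicate 2, so that without that library 4 of the 11 held no H3K27ac. H3K79me2 peaks touched 5.60 ± 2.55% of the 134 wholly covered regions and 25.6 ± 2.09% of the 39 others (mean ± SD, n = 4). The difference was -20.0 ± 1.80 percentage points, in the same direction in 4 of 4 libraries (exact sign-flip p = 0.125, 0.141 adjusted over 9 comparisons that were chosen after seeing the data). The 29 regions covered to at least 50% but not wholly had H3K79me2 in 13.8, 20.7, 13.8 and 10.3% of cases. The 10 regions with H3K9me3 over less than 50% of bases had it in 60, 50, 60 and 60%. They were also longer, with a median of 2797 bp against 1217.5 bp for the wholly covered regions, and the part of length in this was not tested.

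H3K27ac peaks touched 6.36, 49.7, 8.67 and 7.51% of the dual-mark regions and 75.9, 42.6, 93.6 and 89.7% of plain regions in replicates 1 to 4. Replicate 2 stood apart in both classes, and was the only library with a higher share at dual-mark regions (by 7.12 percentage points). Whether its peaks at these regions reflect H3K27ac or another property of the library was not tested. The difference over 4 libraries was -57.4 ± 43.5 percentage points (exact sign-flip p = 0.25, adjusted 0.3125), and it was -78.9 without replicate 2. When 1 H3K9me3 list was enough, it was -13.6 (exact sign-flip p = 0.375). In at least 2 lists H3K27ac was found at 13 dual-mark regions (7.51%), against 82.1% of all H3K4me3 regions. Replicate 2 touched 86 dual-mark regions, of which 72 were wholly in H3K9me3 and 7 were touched by another H3K27ac list. Among wholly covered regions H3K27ac was at 0.746, 53.7, 1.49 and 0.746% in replicates 1 to 4, and among the 10 regions covered to less than 50% at 90, 50, 90 and 90%. Wholly covered regions had less H3K27ac than the others in replicates 1, 3 and 4 (by 24.9 to 31.8 percentage points) and more in replicate 2 (by 17.8).

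H3K4me1 peaks touched 4.05, 4.62, 4.62 and 4.05% of the dual-mark regions, against 48.3, 58.6, 58.6 and 42.6% of plain H3K4me3 regions. The classes did not overlap, and the difference was -47.7 ± 7.65 percentage points (n = 4, exact sign-flip p = 0.125, adjusted 0.208). In at least 2 lists H3K4me1 was found at 8 dual-mark regions (4.62%), against 55.1% of all H3K4me3 regions. H3K4me3 regions with H3K27me3 had H3K4me1 at 45.8, 56.7, 44.2 and 41.0%, a range that overlapped that of plain regions and lay above the dual-mark values. When 1 H3K9me3 list was enough, the difference of H3K4me1 from plain regions turned to 4.51 percentage points in the other direction (exact sign-flip p = 0.5), and when peaks had to cover 50% of a region it was -1.95. Each library touched 1 wholly covered region, or 0.746%, against 16.7 ± 1.48% of the others (difference -15.9 ± 1.48 percentage points, exact sign-flip p = 0.125, adjusted 0.141). The share of the others came mostly from the 10 regions covered to less than 50%, with 60, 60, 60 and 50%. The 29 regions covered to at least 50% but not wholly had 0, 3.45, 3.45 and 3.45%.

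Taking the 3 marks together, 74 dual-mark regions had none of H3K79me2, H3K27ac and H3K4me1 in any of the 12 lists (42.8%, against 4.16% of all H3K4me3 regions), and 139 had none when the H3K27ac list of replicate 2 was not used (80.3%, against 4.73%). In all, 151 had none in at least 2 lists of a mark (87.3%, against 11.3%), and 6 had all 3 marks in at least 2 lists each (3.47%, against 43.1%). Between H3K79me2 (10.1 ± 2.34%) and H3K27ac (18.1 ± 21.1%) at dual-mark regions no difference was larger than the spread (-7.95 percentage points, exact permutation p = 0.943, adjusted 0.943). Without replicate 2 this difference was 2.12 in the other direction.

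**Figure D3:**
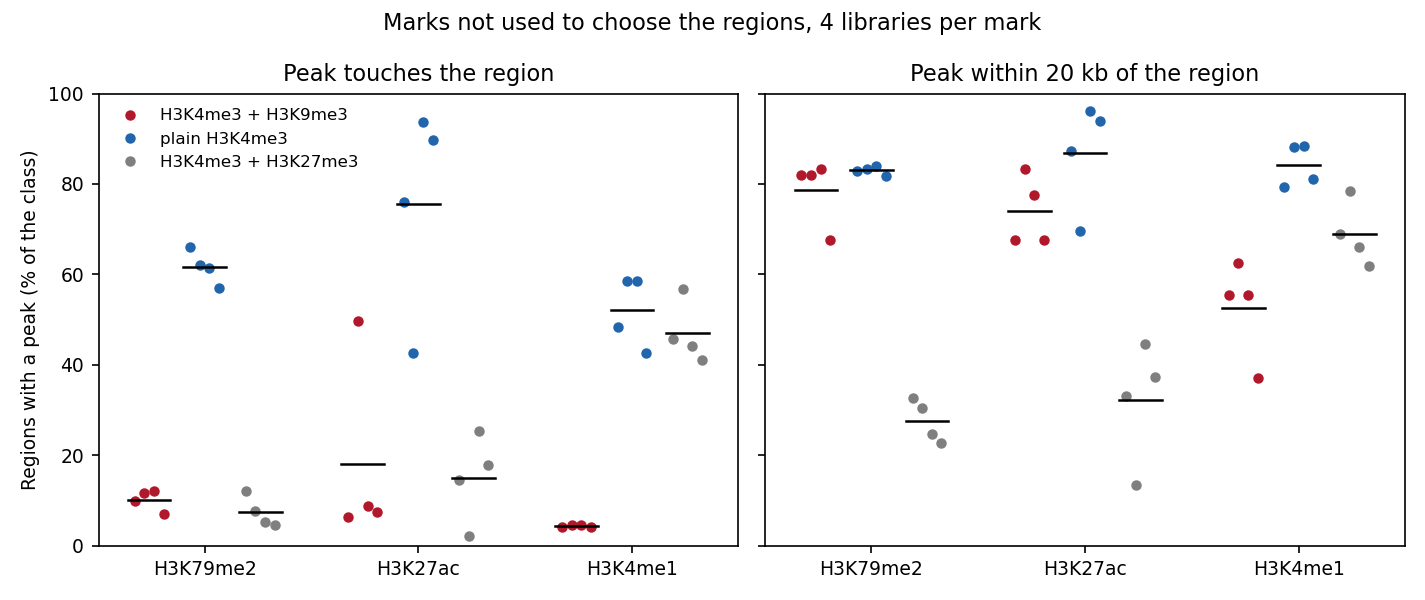
Share of regions (in %) with a peak of H3K79me2, H3K27ac or H3K4me1, for dual-mark (red), plain (blue) and H3K27me3-bearing (grey) H3K4me3 regions. Each point is a library, in the order of replicates 1 to 4, and black bars are means. In the left panel a peak touches the region, and dual-mark regions lie at or below 12.1% for all libraries except H3K27ac replicate 2 (49.7%). In the right panel a peak lies within 20 kb, and H3K79me2 reaches 67.6 to 83.2% of dual-mark regions, 81.8 to 84.1% of plain ones and 22.6 to 32.6% of those with H3K27me3.

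H3K79me2 was common close by. Within 10 kb of a dual-mark region its peaks were found in 59.5, 62.4, 61.8 and 45.1% of cases in replicates 1 to 4, against 78.8, 78.5, 79.9 and 77.6% for plain regions. The difference was -21.5 ± 7.49 percentage points, against -51.5 inside the region. Within 20 kb the shares were 82.1, 82.1, 83.2 and 67.6% for dual-mark regions and 82.9, 83.3, 84.1 and 81.8% for plain regions. The difference of -4.28 ± 6.63 percentage points was smaller than its own spread, although all 4 libraries had the same sign, and replicate 4 gave -14.2 where the others gave -1.22 to -0.814. Both comparisons had an exact sign-flip p of 0.125, adjusted 0.141. In at least 2 lists, H3K79me2 was within 10 kb of 105 dual-mark regions (60.7%) and within 20 kb of 143 (82.7%), where all H3K4me3 regions gave 75.2% and 79.8%.

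The H3K4me3 regions with H3K27me3 also held little H3K79me2 inside, at 12.1, 7.59, 5.15 and 4.62% of them, a range that overlapped that of dual-mark regions. Within 20 kb it was found at 32.6, 30.5, 24.7 and 22.6%, below the dual-mark regions by 45.0 to 58.5 percentage points in 4 of 4 libraries (mean 51.1 ± 5.63, exact sign-flip p = 0.125, adjusted 0.141). The nearest bases with H3K79me2 in at least 2 lists lay a median of 7355 bp from a dual-mark region (quartiles 3245 and 14500 bp). They were outside the region but within 20 kb for 126 of the 173 (72.8%), against 2052 of 10822 plain regions, of which most had it inside. They lay beyond 100 kb for 17 of the 173 dual-mark regions and 521 of the 10822 plain ones, a larger share of the dual-mark regions.

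The profile of H3K79me2 around the dual-mark regions had its low point at the centre. Its peaks covered 7.94 ± 1.69% of bases within 1 kb, 9.71 ± 2.84% at 2 to 5 kb, 14.7 ± 3.96% at 5 to 10 kb and 14.5 ± 3.63% at 10 to 20 kb (mean ± SD, n = 4). In plain regions the same zones had 41.9 ± 8.48, 30.9 ± 2.86, 23.7 ± 2.54 and 18.6 ± 2.07%, falling with distance. In windows of 20 kb on each side H3K9me3 took up 18.4% of bases, and 12.1 ± 1.47% of the H3K79me2 bases there lay on H3K9me3. For H3K4me1 that share was 2.22 ± 0.138%. For H3K27ac it was 1.26, 51.3, 3.46 and 2.26% in replicates 1 to 4, again with replicate 2 apart from the others.

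Where H3K79me2 was present within 20 kb, it tended to be on 1 side. In replicates 1 to 4, 110 of 142, 107 of 142, 110 of 144 and 95 of 117 dual-mark regions had it on 1 side only, which is 77.5, 75.4, 76.4 and 81.2%. Plain regions had 54.5, 63.8, 65.1 and 66.5%, lower in each library, and the difference was 15.1 ± 5.48 percentage points (exact sign-flip p = 0.125, adjusted 0.141). The 10 kb flank with more H3K79me2 bases was compared with the flank with more bases of H3K9me3 in at least 2 lists. They were the same side in 54 of 100, 58 of 105, 58 of 104 and 41 of 75 dual-mark regions that could be compared. The mean was 54.9%, or 4.92 ± 0.76 percentage points above the 50% of unrelated sides, in 4 of 4 libraries (exact sign-flip p = 0.125, adjusted 0.208). The libraries were read over the same regions and H3K9me3 blocks, and the exact Clopper-Pearson 95% interval of each (counting error only) held 50%, for example 45.2 to 65.0% for the 105 regions of replicate 2. Whether a side was preferred could not be decided by that measure. The intervals treat the regions as independent, and 4 libraries cannot give a sign-flip p below 0.125. When 1 H3K9me3 list was enough, with its bases used for the side, the excess was 24.8 percentage points (exact sign-flip p = 0.125).

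The dual-mark regions were also set in the wider landscape of H3K9me3. The bases with H3K9me3 in at least 2 lists formed 3103 blocks, of which 146 held a dual-mark region (123 held 1, 19 held 2 and 4 held 3) and 2905 touched no H3K4me3 region. Each counted once, blocks with a dual-mark region had a median length of 4885.5 bp and those without H3K4me3 646 bp. Of the 213 blocks of 4 kb or more, 95 held a dual-mark region (44.6%), against 29 of 327 blocks of 2 to 4 kb (8.87%), 10 of 612 blocks of 1 to 2 kb (1.63%) and 12 of 1951 shorter ones (0.615%). A longer block has more room for a region, so these shares are not per base.

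The lists of the other marks differed in how far they followed block length. At blocks of 4 kb or more, H3K4me3 peaks were found in 47.4, 71.4, 65.3 and 88.7% of cases in replicates 1 to 4, against 2.77, 3.08, 3.69 and 9.17% of blocks below 1 kb. H3K27ac was found at 0.939, 50.7, 1.88 and 1.41% of the longest blocks, and at 0.256, 3.95, 1.64 and 1.38% of those below 1 kb, so that the longest blocks stood apart in replicate 2. H3K4me1 went from 0.359, 0.564, 0.923 and 0.769% of the blocks below 1 kb to 1.41, 0.939, 3.29 and 2.35% of the longest, and H3K27me3 from 2.72, 3.54, 6.71 and 4.31% to 0.939, 0.939, 1.88 and 0.939%. H3K4me1 was thus higher and H3K27me3 lower on the longest blocks in each library, at levels under 4%. The H3K27ac list of replicate 2 and all 4 H3K4me3 lists thus held peaks on long H3K9me3 blocks, and whether the strength of H3K9me3 there affected the calling of other peaks was not tested. H3K79me2 was found at 21.7 ± 5.40% of blocks with a dual-mark region and 8.64 ± 0.768% of blocks without H3K4me3 (difference 13.1 ± 4.76 percentage points). Within 10 kb of the blocks the shares were 65.8 ± 6.69 and 23.1 ± 1.89% (difference 42.6 ± 5.00). The part of block length in these 2 differences was not tested. Both differences had the same sign in 4 of 4 libraries (exact sign-flip p = 0.125, adjusted 0.141).

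**Figure D4:**
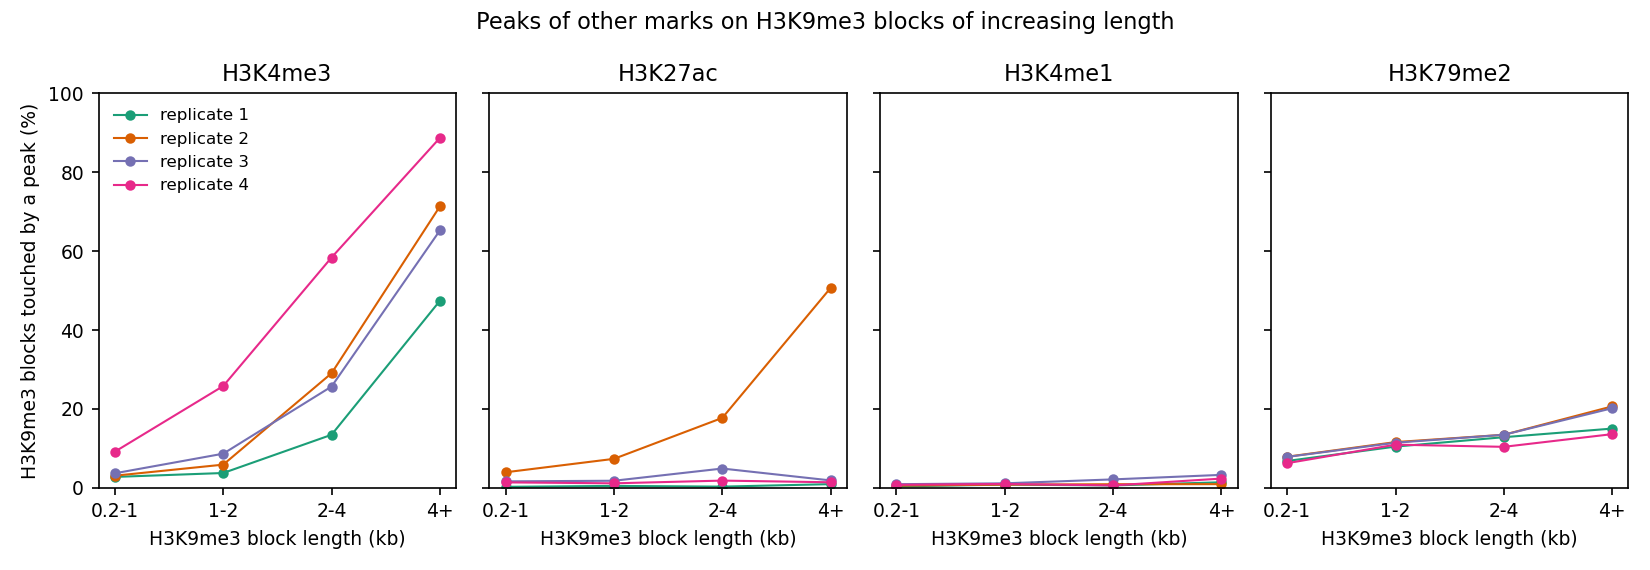
Share of H3K9me3 blocks touched by a peak (in %) against block length in kb, in 4 length classes of 1951, 612, 327 and 213 blocks, with 1 line per library. H3K4me3 rises to between 47.4 and 88.7% of the longest blocks in all 4 libraries, H3K27ac to 50.7% in replicate 2 and at most 1.88% in the others, H3K4me1 to at most 3.29% and H3K79me2 to between 13.6 and 20.7%.

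The dual-mark regions were unevenly spread over the genome. Chromosomes 7, 17, 13 and 18 held 28, 27, 16 and 15 of them, together 86 or 49.7%. As a share of the H3K4me3 regions of the chromosome this was 3.11, 4.28, 3.05 and 4.14%, and 0.144 to 1.77% on the other chromosomes with any. Chromosome 14 had none among its 415 H3K4me3 regions, and the other 18 chromosomes had at least 1.

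**Figure D5:**
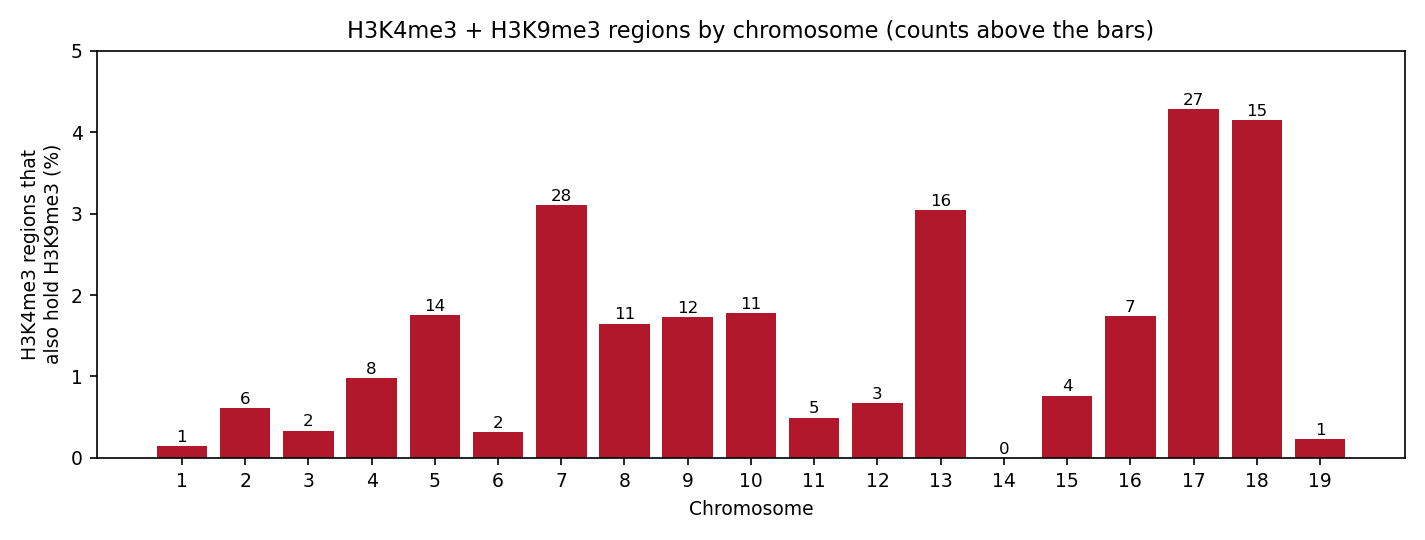
Dual-mark regions as a percentage of all H3K4me3 regions on each chromosome, with their number above each bar. Chromosomes 17 (4.28%), 18 (4.14%), 7 (3.11%) and 13 (3.05%) stand above the others, and chromosome 14 has 0.

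Many dual-mark regions were neighbours. The nearest H3K4me3 region was itself dual-mark for 61 of the 173 (35.3%, exact Clopper-Pearson 95% interval 28.2 to 42.9%, for counting error and as if the regions were independent), against 149 of 10822 plain regions (1.38%) and 4 of 1146 regions with H3K27me3 (0.349%). They were not independent. In 48 of the 61 cases both lay in the same H3K9me3 block, and 50 dual-mark regions in all shared a block with another. In 13 cases the neighbour lay in a different block. The share also depended on the rule, at 85.3% when gaps between H3K4me3 bases were not closed and 20% when H3K4me3 was required in all 4 lists. The median distance to the next dual-mark region was 56135 bp (quartiles 3399 and 811294 bp), and 63.2% of those with another on their chromosome had it within 100 kb. Plain regions, of which there were far more, lay a median of 32732 bp from the next plain region (80.9% within 100 kb), and regions with H3K27me3 440108 bp from the next of their kind (21.4%). Joined across gaps of up to 500 kb, 123 dual-mark regions (71.1%) fell into 33 chains of 2 or more, and 9 chains of 5 or more held 63. With each H3K9me3 block counted once, 87 of the 146 blocks (59.6%) fell into 24 chains, the largest of 9 blocks. The share in chains was 62.4% with gaps of up to 100 kb and 74.0% with gaps of up to 1 Mb.

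The longest chain lay on chromosome 17, chr17:21723828-23314474 (mm9, 1591 kb). It held 12 dual-mark regions in 9 H3K9me3 blocks, among 28 H3K4me3 regions of which the other 16 were plain. H3K9me3 peaks covered 14.8, 8.79, 5.73 and 4.97% of it in replicates 1 to 4, and H3K79me2 4.34, 5.58, 4.39 and 1.92%. H3K79me2 was within 10 kb of 5, 5, 6 and 3 of the 12 members. Dual-mark and plain regions thus lay side by side in this stretch.

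The chain at chr10:81517647-81842434 (325 kb) was denser, with 8 dual-mark regions of 13 H3K4me3 regions, in 4 blocks. H3K9me3 covered 26.9, 20.6, 12.6 and 13.4% of it and H3K79me2 6.18, 7.47, 3.46 and 2.30%. Chromosome 7 had 2 of the named chains. In chr7:13075048-13436388 (361 kb) 6 of 9 H3K4me3 regions were dual-mark, in 3 blocks, and they were long (median 2749 bp). Its first and last members are among the 8 regions with most shared bases given above. H3K79me2 lay within 10 kb of 5 of the 6 in each of the 4 libraries. In chr7:30560884-30947593 (387 kb) 7 of 22 regions were dual-mark, in 6 blocks, and H3K79me2 covered 12.8, 15.5, 10.6 and 6.93% of the stretch, more than in any other of the 6 named chains in each library.

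In chr13:67140685-67593161 (452 kb) 6 of 21 H3K4me3 regions were dual-mark, each in its own block, and H3K79me2 was within 10 kb of 3, 5, 4 and 3 of them. The chain at chr4:146724918-147204627 (480 kb) stood apart from the other 5. Of its 6 H3K4me3 regions 5 were dual-mark, in 4 blocks, with a median of 243 bp and lengths from 215 to 1359 bp. Except for chr4:147199644-147201002, these had no H3K4me3 base in replicate 3. They thus met the criterion of 3 lists only with the sparse list of replicate 1. H3K79me2 covered 0% of the stretch in all 4 libraries, and H3K27ac at most 0.034%, while H3K9me3 covered 20.8, 8.95, 6.17 and 5.00%. On chromosome 18 the longest chain had 9 members. None of the 6 named chains held an H3K4me3 region with H3K27me3.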

How the data were processed

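Each of the 24 antibody libraries had a peak list with chromosome, start, end, name and score. The deposited score, set by the authors for every peak (smallest 50 in these lists), was not rescaled and was used only to rank peaks within a list or as a filter. Per the submitters' processing notes, reads were handled with CASAVA 1.7, Bowtie, MACS and deepTools on build mm9. Settings, and the use of input as control, are not given in the sources used here. There is 1 deposited list per library, so replicates were not pooled. Counts of reads are not in the lists, so depth and its precision are unknown.

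Positions are counted from 1 in mm9. The gene, promoter and miRNA tables at hand are of another build (GRCm38.p6), so no genes were assigned and no sequence is shown. The planned description of gene families was not made.

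Interval steps were run in Python 3.11.15 with NumPy 2.4.6 and SciPy 1.17.1 and tested on simulated data. A region was touched when a peak shared at least 1 bp. Shares per library were compared within the library by sign flips of the 4 differences (exact, two-sided, 16 patterns, smallest p 0.125) and between marks by an exact permutation test (70 splits, smallest p 0.0286), with Benjamini-Hochberg adjustment over 5 planned tests and, separately, over 9 added ones. The members, lists and tests were chosen with earlier results of these data known. Regions were named by rule: the 6 chains with most members, the 8 members with most bases in at least 3 H3K4me3 and all 4 H3K9me3 lists, the 3 longest, up to 3 with H3K79me2 in all 4 lists and no H3K27ac in any list (there were none, and 4 regions had it in replicate 2 only), and the 2 highest and 2 lowest overlaps with H3K9me3. Chromosome 18 was left out of the named regions. The alternatives tried were other numbers of lists, gaps, scores, overlaps, windows and flanks, and leaving out each replicate. Counts without the H3K27ac list of replicate 2 alone were added after seeing the data.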

Additional observations from a re-analysis of the deposited data

Results flagged for a closer look

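Of 24 groups of 4 libraries examined, 7 had a library flagged as far from the other 3. Chance alone gives about 1 in 20 for independent groups. These groups share libraries and regions, so their number cannot be judged by that rate.

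H3K27ac replicate 2 was far from the other libraries in 3 of the flagged groups. It touched 49.7% of the dual-mark regions, where the others touched 6.36 to 8.67%, and 63.7% of the H3K9me3 blocks that hold a dual-mark region, where the others touched 2.74 to 8.90%. Its difference between dual-mark and plain regions was 7.12 percentage points, and that of the others -84.9 to -69.6. Of the 86 dual-mark regions it touched, 16 were touched by H3K79me2 replicate 2.

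H3K79me2 replicate 4 was low near dual-mark regions, with 45.1% within 10 kb (others 59.5 to 62.4%) and 67.6% within 20 kb (others 82.1 to 83.2%). Of the 4 H3K79me2 lists it had the most peaks (53360) and the smallest median width (1106 bp against 1686 to 2805 bp). It also covered the fewest bases (114 Mb against 140 to 154 Mb) and touched the fewest of all H3K4me3 regions (51.2% against 55.3 to 60.2%). At plain regions within 20 kb it gave 81.8% against 82.9 to 84.1%. H3K79me2 replicate 1 had the largest difference between dual-mark and plain regions, -56.3 percentage points against -50.4 to -49.3. H3K4me1 replicate 4 touched 2.74% of the H3K9me3 blocks with a dual-mark region, against 4.11% in each of the other 3. Since those 3 were equal, any different value would have been flagged.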

How the results depend on the processing

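The mean difference of H3K79me2 between dual-mark and plain regions kept its sign in all 18 alternatives, though not in every library of each. It was -61.5 to -3.20 percentage points, and -52.3 to -49.9 when leaving out a replicate. The mean difference of H3K27ac also kept its sign (18 alternatives, -78.9 to -12.8). That of H3K4me1 kept it in 17 of 18 (-50.8 to -1.95, with -17.4 for H3K4me3 in all 4 lists, -23.2 in a 1 kb window and -26.6 for peaks of score 100 or more) and was 4.51 with H3K9me3 in at least 1 list. The excess of same-sided H3K79me2 and H3K9me3 was positive in all 15 alternatives (3.68 to 24.8). H3K79me2 against H3K27ac (-7.95) turned to 2.02 when peaks had to cover 50% of the region, to 8.67 and 4.77 with 10 and 20 kb flanks (added after seeing the data), and ranged from -11.8 to 2.12 when leaving out a replicate. The causes were not tested.

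The number of dual-mark regions, the share wholly in H3K9me3 and the share whose nearest region is dual-mark moved with the rule. They were 455, 32.5% and 20.7% with H3K9me3 in at least 1 list, 40, 95% and 20% with H3K4me3 in all 4 lists, 348, 93.1% and 85.3% with gaps not closed, and 108, 87.0% and 27.8% with peaks of score 100 or more. With H3K4me3 in at least 2 lists there were 347, of which 51.0% were wholly covered. Leaving out each replicate in turn gave 189 to 317 regions, 32.8 to 74.6% and 33.1 to 39.0%, and 168 to 172 of the 173 regions were kept. With H3K4me3 required in replicates 2, 3 and 4 (an alternative added after seeing the data) there were 146, of which 145 are among the 173.

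With the replicate number as a block, H3K79me2 against H3K27ac remained -7.95 percentage points (exact sign-flip p = 0.875). Same-numbered libraries correlated at -0.010 to 0.168 over the members, 2 of 4 pairs above 0.1, and not every library correlated best with its own number, so the numbers were not taken as pairs.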

Other observations

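On chromosome X, outside the chromosomes examined above, 1 of 339 H3K4me3 regions met the same criteria.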
